A study of Homo sapiens with 4 samples.

Results

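The 9 interferon response genes described here are IFIT1, IFIT2, IFIT3, ISG15, MX1, OAS1, IRF1, IRF9 and STAT2. They were taken as a list of symbols, 9 of 19974 protein-coding genes. For each gene, every peak of open chromatin that overlapped the gene or 10 kb either side (its window) was collected. The 9 windows held 43 of the 128195 regions that peaks of the 4 libraries merged into. Of these, 18 had a peak in all 4 libraries, among 50771 such consensus regions in all. The assay was single-nucleus ATAC-seq, in which a transposase cuts open chromatin, and values are counts of cuts or fragments per peak and barcode.

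The transplanted cells were of Panc1, a cell line of pancreatic ductal adenocarcinoma, grown in mice, and the labelled tissue is pancreas. Nuclei of the mouse hosts were not told apart from those of Panc1. The groups were Carrier (mice 12 and 31) and Inflachromene (mice 11 and 35), with 1 library per mouse. The reported targets of inflachromene, a drug-like compound, are HMGB1 and HMGB2, which bend DNA in the nucleus and can act as alarm signals outside it. All 4 libraries share the cell line, and the labels give no dose, duration, mouse strain or age. The transplanted cells are a single line, so the mice are replicates of the transplant and not of the tumour.

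Interferons are secreted when cells sense foreign or misplaced nucleic acid. Type I interferon receptors act through the kinases JAK1 and TYK2, and a complex that holds STAT2 and IRF9 then binds the interferon-stimulated response element in front of antiviral genes. IRF1 is a transcription factor whose own gene responds to interferon through the gamma-activated sequence. Open chromatin at a gene start goes with its potential for use and is not a measure of its RNA.

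The promoters are shown first because they hold the elements through which interferon is known to act. RefSeq (GRCh38.p14) lists starts for 8 of the 9 genes, with 250 bases before and 50 after each start, 11 promoters in all. The core of the interferon-stimulated response element was searched on both strands as GAAA, any 2 bases and again GAAA, and the gamma-activated sequence as TTCNNNGAA, which reads the same on both strands. In capitals are the matches to this response element core, and each stretch is written 5′ to 3′ in the direction of transcription.
IFIT1 (chr10:89392477-89392559, plus strand): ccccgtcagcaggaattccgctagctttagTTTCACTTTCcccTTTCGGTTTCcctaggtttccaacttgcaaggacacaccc
IFIT3, first start (chr10:89327811-89327914, plus strand): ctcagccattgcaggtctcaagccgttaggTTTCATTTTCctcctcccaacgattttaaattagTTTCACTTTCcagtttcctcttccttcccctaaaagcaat
IFIT3, inner start (chr10:89332405-89332517, plus strand): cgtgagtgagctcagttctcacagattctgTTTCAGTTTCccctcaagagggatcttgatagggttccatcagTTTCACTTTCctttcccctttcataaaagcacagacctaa
ISG15 (chr1:1013354-1013429, plus strand): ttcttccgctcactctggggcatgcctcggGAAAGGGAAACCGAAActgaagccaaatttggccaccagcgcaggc
MX1, first start (chr21:41420561-41420590, plus strand): gcagaaatGAAACCGAAActgaattgtccg
The matches lay 116 to 94 bases before the IFIT1 start, 156 to 113 before the first IFIT3 start, 94 to 42 before the inner IFIT3 start and 113 to 98 before the ISG15 start, where they overlap each other. That of MX1 lay 12 to 21 bases after its first start. Counts of matches per promoter were 2 at IFIT1, at each IFIT3 start and at ISG15, and 1 at the first MX1 start. A further MX1 start, the third, held 1 as well. Among all 22132 promoters of protein-coding genes in the table, 3.17% held a match, against 6 of the 11 member promoters. The members were chosen as interferon response genes, so this count describes the choice and was not tested. A match is a description of letters and not a proven binding site.

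The OAS1, IRF1, IRF9 and STAT2 promoters held no match to the response element core in this window. Of these, OAS1, IRF1 and IRF9 held TTCNNNGAA. The third MX1 start held it too, so 4 of the 11 member promoters did, against 6.79% of all promoters. The stretches of OAS1, IRF1 and IRF9 have that match in capitals.
OAS1 (chr12:112906764-112906832, plus strand): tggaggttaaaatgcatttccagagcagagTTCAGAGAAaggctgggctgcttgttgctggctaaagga
IRF1 (chr5:132490859-132490927, minus strand): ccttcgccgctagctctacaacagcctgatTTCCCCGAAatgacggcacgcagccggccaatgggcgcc
IRF9 (chr14:24161172-24161240, plus strand): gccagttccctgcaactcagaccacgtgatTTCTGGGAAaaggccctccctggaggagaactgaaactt
The base composition of the 250 bases before the start also varied. G and C made up 40.4% at the first IFIT3 start, 42.8% at OAS1, 46.0% at IFIT1, 59.6% at ISG15 and at IRF9, 63.6% at the first MX1 start, 67.2% at STAT2 and 74.4% at IRF1. CpG pairs numbered 29 at IRF1, 21 at STAT2 and 4 at IRF9 among the regulators. Among the effectors they numbered 17 at ISG15, 15, 25 and 4 at the MX1 starts, 5 and 1 at the IFIT3 starts, 4 at IFIT1 and 1 at OAS1, so the ranges of regulators and effectors overlapped.

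The libraries held 27088391 to 39947056 counts in 2039 to 5186 barcodes, of which 939 to 2070 had at least 2000 counts and are called deep. Between 82.4% and 84.9% of matrix entries are even, so counts often come in pairs, and intervals that cover counting error treat them as independent. Some barcodes occur in more than 1 library: Carrier 12 and Inflachromene 11 share 1209, Carrier 12 and Carrier 31 share 357, and Carrier 31 and Inflachromene 11 share 155, while pairs with Inflachromene 35 share 25 to 29. In Carrier 12, 1135 of 1508 shared barcodes were deep, and in Inflachromene 11, 31 of 1306. Shallower copies made up 31.4% of the barcodes of Inflachromene 11, at a median of 155 counts, but 0.988% of its counts, and at most 0.799% of the counts of the other libraries. All shared barcodes together, the deep ones included, held 58.5% and 61.8% of the counts of Carrier 12 and 31 but 3.26% and 1.34% of those of Inflachromene 11 and 35. Of 6 carcinoma markers, 5 had a peak within 1 kb of a start in every library, all but KRT7. None of the 3 B cell, 3 endothelial, 3 acinar and 3 plasmacytoid dendritic cell markers had a peak in every library, and of 4 T and NK cell markers CD3E alone did, whereas 3 of 4 fibroblast markers and 4 of 5 myeloid markers did, among them COL1A1 and CD14.

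Of the 9 genes, 8 had a consensus region at a start, and their openness differed widely. Levels are given as start CPM, the counts of a region at a gene start scaled to the library's counts at all gene starts (with TMM factors), per kb of region. STAT2 and IRF1 were the most open members, IRF9 stood near the middle of all genes, and ISG15, IFIT1, IFIT2, IFIT3 and MX1 were below it. The median of all 12311 gene starts with a consensus region was 75.6 per kb, and the middle range between quartiles was 44.3 to 113. For IFIT2, which has no promoter entry, the region over an outer end of the gene was used. It overlaps the gene LOC105378419 too.

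STAT2 stood at 169 and 174 per kb in Carrier 12 and 31 and at 166 and 185 in Inflachromene 11 and 35, a mean at percentile 93.9 of all gene starts. IRF1 stood at 105 and 102 under Carrier and at 122 and 123 under Inflachromene, percentile 75.1. IRF9 stood at 70.6, 72.0, 75.3 and 70.9 in the same order of libraries, percentile 47.2. These regulators kept separate ranges over the 4 libraries, so the order STAT2, IRF1, IRF9 held in each of them. ISG15, which encodes a ubiquitin-like protein, followed at 46.8, 54.9, 45.8 and 58.8, percentile 30.8, again with a range of its own. IFIT1, whose product binds viral RNA lacking a host-like cap, lay between 21.6 and 26.4 in 3 libraries and at 36.7 in Inflachromene 35, percentile 13.4. IFIT2 stood at 30.6, 22.5, 22.0 and 30.3, percentile 13.0. IFIT3, a partner of IFIT1 in the same complex, stood at 20.6, 16.6, 23.3 and 26.6, percentile 9.99. MX1, a GTPase that blocks virus replication, was lowest at 18.5, 17.6, 18.0 and 20.9, percentile 7.98. The ranges of neighbours overlapped among IFIT1, IFIT2, IFIT3 and MX1, so their order is not fixed by these data.

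**Figure D1:**
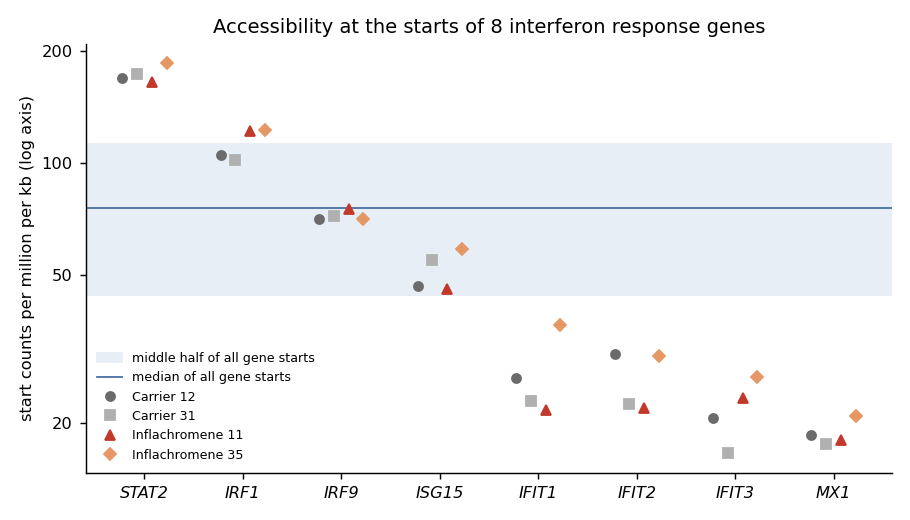
Start CPM per kb of region (log axis) at the 8 genes with a consensus region at a start. Each point is 1 library, the band is the middle range between quartiles of all 12311 gene starts, and the line is their median of 75.6. STAT2 lies above the band in all 4 libraries and the IFIT genes and MX1 lie below it.

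OAS1, an enzyme that makes the messenger which activates RNase L, had a weak region at its start (chromosome 12, 112906499 to 112907414). No peak was called there in Carrier 12, whereas Carrier 31 had 134 counts and the Inflachromene libraries 172 and 248. Where no peak was called the deposited matrix has no entry, which is not the same as a count of 0, so the OAS1 start entered no test. A peak at the start in every library but Carrier 12 was found for 218 protein-coding genes (1.09%). The inner IFIT3 start shown above (89332108 to 89332991 on chromosome 10) also varied by library: a peak of 171 counts in Carrier 12 and of 223 in Inflachromene 35 was called, and none in the other libraries.

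Peak calls in the windows varied by library. Of the 43 merged regions, 16 had a peak in 1 library (37.2%, against 35.2% of all merged regions), 2 in 2 libraries, 7 in 3 and 18 in all 4 (41.9%, against 39.6% of all). The single-library regions were 7 of Inflachromene 35, 5 of Carrier 12, 3 of Inflachromene 11 and 1 of Carrier 31. No merged region had a peak in both Inflachromene libraries and neither Carrier library, nor the reverse. IRF9 had a single region, at its start, in all 4 libraries. Peaks in the IFIT3 window covered 1811 and 885 bp in Carrier 12 and 31 and 2552 and 3312 bp in Inflachromene 11 and 35. In the STAT2 window they covered 2720, 1850, 1849 and 1834 bp in the same order of libraries.

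**Figure D2:**
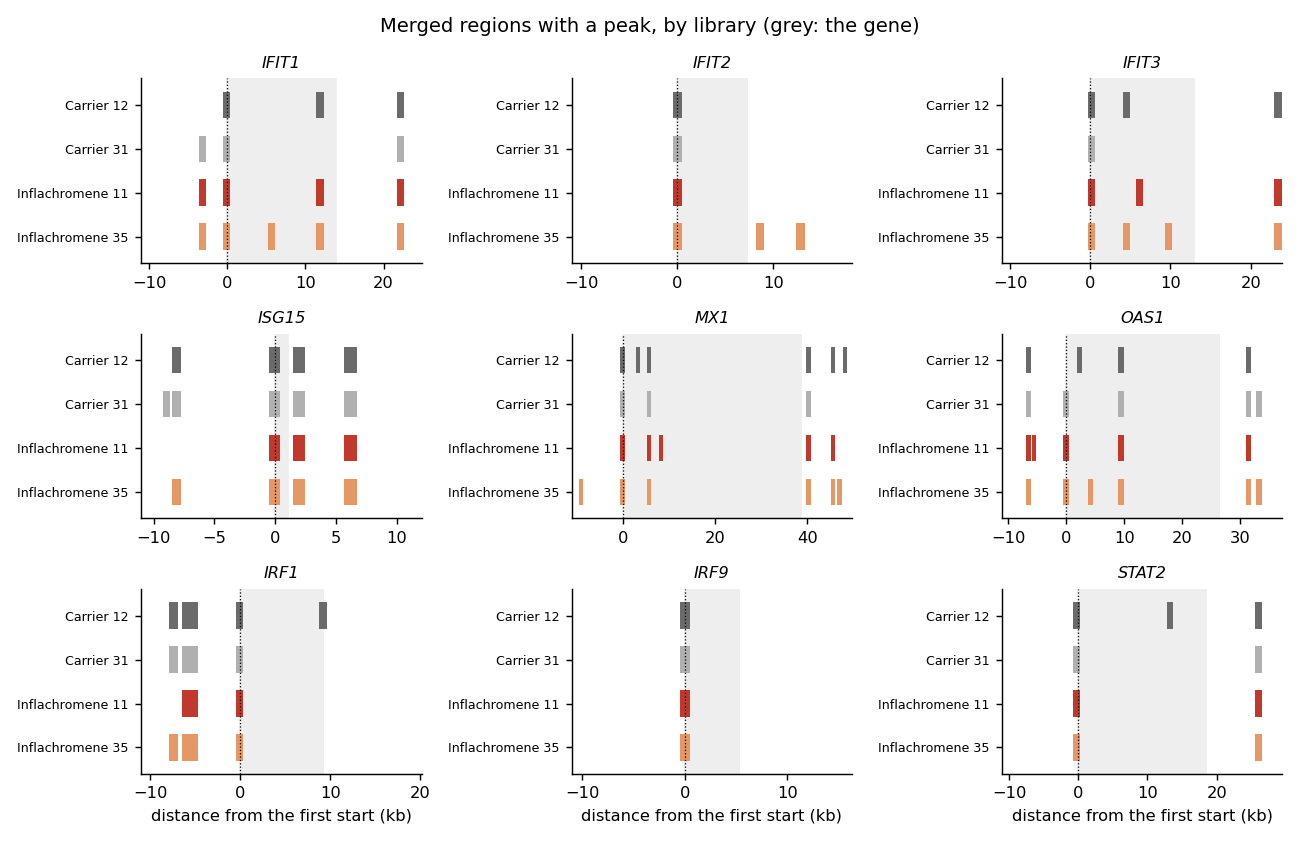
Merged regions that hold a peak in each library, by distance from the first start of the gene (kb, in the direction of transcription, and from the lower coordinate for IFIT2, whose strand is not in the table). The grey span is the gene, and each bar is a region. Start regions appear in all 4 libraries for 8 genes, and that of OAS1 is missing in Carrier 12.

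Whether the genes' accessibility differed between Inflachromene and Carrier was tested first on whole windows, as counts summed over the consensus regions of each window and fitted over 16451 genes. None of the 9 windows passed edgeR's quasi-likelihood test at an adjusted p of 0.05, and of all windows 0.0% passed. At an unadjusted p under 0.05 there were 2 of 9 members, IRF1 and IFIT3, both higher under Inflachromene, against 4.75% of all windows, or 2.91% in that direction, and DESeq2 called 0 members and 9 of all windows (0.0547%). All 9 members had a log2 fold change above 0, against 52.2% of all windows, between 0.01 and 0.45 with a median of 0.07 (all windows 0.01). The groups did not overlap at 3 members, IFIT3, OAS1 and IRF1, all higher under Inflachromene, against 33.1% of all windows, or 17% in that direction. IFIT2, IFIT3, ISG15, MX1 and STAT2 were on the other side of 0 over the 2 main clusters of Carrier barcodes, described with the clusters.

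IRF1 was the member with the smallest unadjusted p. Its window stood at 82.5 and 76.4 window CPM (scaled to the library's counts in all windows, with TMM factors) under Carrier and at 98.5 and 92.0 under Inflachromene. Both Inflachromene libraries were higher than both Carrier libraries, by 0.26 on the log2 scale (n = 2 each, standard error, SE, 0.08, 95% interval 0.07 to 0.45, edgeR adjusted p = 0.978). At the start itself, a region of 887 bp (chromosome 5, 132490415 to 132491301), the start CPM were 93.1 and 90.6 under Carrier and 108 and 109 under Inflachromene. The log2 difference at the start was 0.24 (SE 0.07, 95% interval 0.07 to 0.40, edgeR adjusted p = 0.721). The other consensus region of the window lies before the start (132495511 to 132497289), at -4738 bp. It stood at 53.6, 48.4, 67.8 and 56.2 region CPM (scaled to all consensus counts) in Carrier 12 and 31 and Inflachromene 11 and 35, a log2 difference of 0.28 (SE 0.16). A region further out (132497722 to 132498703) held 680 and 708 counts under Carrier and 1079 in Inflachromene 35 but had no peak in Inflachromene 11. When every peak of each library was summed, where a region without a called peak adds nothing, the log2 fold change of the IRF1 window was 0.07. Without barcodes found in more than 1 library, which leaves out most Carrier counts, it was 0.17. The surrounding 5 Mb on either side, without the window, differed by -0.0021 on the log2 scale.

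IRF9, the DNA-binding partner of STAT2, showed overlapping groups. Its window consists of the start region alone (chromosome 14, 24160793 to 24161785), with 1109 and 1085 counts under Carrier and 1072 and 1249 under Inflachromene. At the start, the log2 fold change was 0.04 (SE 0.08, 95% interval -0.15 to 0.22, edgeR adjusted p = 0.989). STAT2, on chromosome 12, had 106 and 113 window CPM under Carrier and 109 and 120 under Inflachromene. The window's other consensus region is the start of the neighbouring gene PAN2. At the STAT2 start (56359887 to 56360823, also overlapping APOF) the log2 fold change was 0.04 (SE 0.08, 95% interval -0.13 to 0.20, edgeR adjusted p = 0.984). Differences between these genes and IRF1 were not tested.

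The IFIT genes lie side by side on chromosome 10 within the bounds that RefSeq gives for LIPA, a lysosomal lipase gene. IFIT3 had the largest log2 fold change of the 9. Its window has a single consensus region, the first start (89327652 to 89328604), with 311 and 240 counts under Carrier and 319 and 450 under Inflachromene. These are 8.30, 6.94, 9.97 and 10.9 window CPM, so both Inflachromene libraries were above both Carrier libraries. The log2 fold change was 0.45 (SE 0.18, 95% interval 0.03 to 0.88, edgeR adjusted p = 0.978) for the window. On the scale of gene starts it was 0.43 (0.20, interval -0.01 to 0.86, adjusted p = 0.852). The surrounding 5 Mb differed by 0.08 on the log2 scale, and with an offset for them the window's value was 0.36. It was 0.32 without Carrier 31, 0.59 without Carrier 12, 0.62 without barcodes found in more than 1 library and 0.94 with every peak of each library.

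The groups overlapped at IFIT1 and at IFIT2. The IFIT1 window stood at 33.4 and 25.5 window CPM under Carrier and at 30.9 and 37.2 under Inflachromene, a log2 fold change of 0.21 (SE 0.15, 95% interval -0.15 to 0.57). Leaving out 1 library moved the window to 0.017 without Carrier 31, 0.067 without Inflachromene 35, 0.33 without Inflachromene 11 and 0.42 without Carrier 12. Its start (89392109 to 89392997) was highest in Inflachromene 35, at 32.6 start CPM, against 23.5, 20.4 and 19.2 in Carrier 12, Carrier 31 and Inflachromene 11. Its start value was 0.24, and -0.19 without Inflachromene 35. The other region of the window (89414280 to 89415178) is the shared start of LIPA and IFIT5. The IFIT2 start (89301628 to 89302559) stood at 28.5 and 20.9 start CPM under Carrier and at 20.5 and 28.2 under Inflachromene, with 1 library of each group high and 1 low. The log2 fold change was -0.02 (SE 0.22, 95% interval -0.50 to 0.46). Differences between IFIT3 and its neighbours were not tested.

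At ISG15 on chromosome 1 the start (1012970 to 1013892) stood at 43.2 and 50.6 start CPM under Carrier and at 42.2 and 54.3 under Inflachromene. Each group had a high and a low library, and the log2 fold change was 0.04 (SE 0.14, 95% interval -0.27 to 0.36). The window's most open region (1019125 to 1020235) overlaps AGRN, and it held 1504 of the window's 2490 counts in Carrier 12. The first MX1 start on chromosome 21 (41420069 to 41421003) stood at 17.3, 16.5, 16.9 and 19.5 start CPM, a log2 fold change of 0.11 (SE 0.20). At its middle start (41425832 to 41426748) region CPM were 5.39 and 5.47 under Carrier and 6.43 and 6.39 under Inflachromene. A region past the end of MX1 (41460334 to 41461294) stood at 6.92 and 7.07 under Carrier and 6.01 and 5.997 under Inflachromene, a value of -0.22 (SE 0.23) in the opposite direction. At OAS1, the window stood at 24.9 and 24.1 window CPM under Carrier and at 25.6 and 28.8 under Inflachromene, a log2 fold change of 0.15 (SE 0.11). It was 0.062 without Inflachromene 35, 0.23 without Inflachromene 11 and 0.018 over the 2 main Carrier clusters. With 2 kb in place of 10 kb either side it was 0.45 (SE 0.34). The window's most open region (112937940 to 112938867) is the start of OAS3, and a region inside OAS1 (112915987 to 112917012) held 105, 73, 141 and 100 counts. With 2 kb either side, the region inside OAS1 is the window's only consensus region.

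Fitted over all starts and regions, the members gave no call either. Of the 8 starts, 0 passed edgeR's test (0.0% of all gene starts) and 1, that of IRF1, had an unadjusted p under 0.05 (5.85% of all gene starts, and 3.58% when higher under Inflachromene). Of these starts, 7 had a log2 fold change above 0, against 49.5% of all gene starts. The groups did not overlap at 2 starts, IRF1 and IFIT3, both higher under Inflachromene, against 34.7% of all gene starts, or 17.6% in that direction. Of the 18 consensus regions, 0 passed (0.0% of all consensus regions) and 1, at the IFIT3 start, had an unadjusted p under 0.05 (4.48% of all, and 3.04% when higher under Inflachromene). Of these regions, 15 had a log2 fold change above 0, against 51.7% of all consensus regions. The groups did not overlap at 6 of the 18, against 31.5% of all consensus regions: 5 were higher under Inflachromene, against 14% of all, and 1, past the end of MX1, was lower. Consensus counts, to which these values are scaled, were 87.9% and 89.8% of all counts in Carrier 12 and 31. They were 89.5% and 83.1% in Inflachromene 11 and 35. Scaled to all counts, the groups overlapped at the IRF1 region at -4738 bp, at 48.6, 43.2, 59.1 and 46.7 CPM in this order. On that scale the rest of the 6 stayed apart. The first MX1 start, among the 5, overlapped in start CPM. DESeq2 called 28 of the 42896 consensus regions to which it gave an adjusted p (0.0653%). It called 24 of 12072 such gene starts (0.199%), and no member was called among either. Leaving out a library changed the number of windows called among all genes: 261 without Inflachromene 11 and 55 without Inflachromene 35. In each of these fits the Inflachromene arm is 1 library, assumed to vary like the Carrier pair. None of these was a member.

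**Figure D3:**
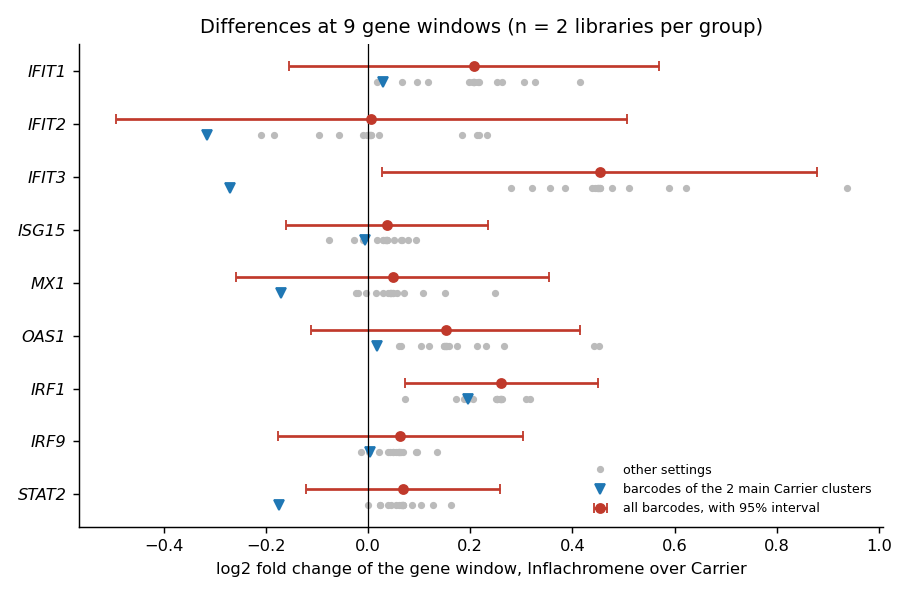
Log2 fold change of the 9 gene windows, Inflachromene over Carrier. Red points are the values over all barcodes with their 95% intervals (n = 2 libraries per group), grey points the values under other settings, and blue triangles the values over the 2 main Carrier clusters of barcodes. All 9 red points are above 0, and the triangles of IFIT2, IFIT3, ISG15, MX1 and STAT2 are below it.

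Barcodes were also clustered on all consensus regions, the members' included, and the 11 clusters are called by number from the largest. Values of single clusters are given as CPM, scaled to the cluster's consensus counts, and are a description without a test. Only the fits over clusters 2 and 3 together, picked for their deep Carrier barcodes, carry edgeR tests. In these fits 0 of all windows and starts were called, and the share of all features at a small unadjusted p was not counted. Clusters 2 and 3 held most deep barcodes of the Carrier libraries. Cluster 4 held 9.95% and 8.95% of deep barcodes in Carrier 12 and 31 and 30.4% and 26.7% in Inflachromene 11 and 35. Cluster 6 was mostly of 1 library, with 485 of its 502 deep barcodes in Inflachromene 35.

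IFIT3 ranged from 4.1 to 24.5 over these clusters, in libraries with enough counts. In cluster 3 it stood at 6.4, 6.6, 4.1 and 7.3 in Carrier 12, Carrier 31, Inflachromene 11 and Inflachromene 35. In cluster 2 it stood at 11.3, 10.8, 10.1 and 10.5, so the 4 libraries were close within that cluster and all above those of cluster 3. In cluster 4 it stood at 18.2, 14.1, 21.9 and 11.1, with overlapping groups, and in cluster 6 of Inflachromene 35 at 24.5. Over clusters 2 and 3 alone, the IFIT3 log2 fold change between Inflachromene and Carrier was -0.27 (SE 0.27, edgeR adjusted p = 1.0), against 0.45 over all barcodes. Clusters 4 and 6 held larger shares of the Inflachromene libraries, as given above, and their part in the difference over all barcodes was not tested.

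IRF1 ranged from 97.1 to 135 over the same clusters and libraries. In cluster 2 it stood at 99.5 and 97.1 under Carrier and at 110 and 109 under Inflachromene. In cluster 3 it stood at 110 and 98.1 under Carrier and at 127 and 113 under Inflachromene, so both Inflachromene libraries were higher in each of these clusters. In cluster 4 the groups overlapped, at 110 and 113 under Carrier and 135 and 103 under Inflachromene. Over clusters 2 and 3 the IRF1 log2 fold change was 0.20 (SE 0.08, edgeR unadjusted p = 0.0411, adjusted p = 1.0), against 0.26 over all barcodes. The STAT2 window was on the other side of 0 there, at -0.17 (SE 0.07, edgeR unadjusted p = 0.0447, adjusted p = 1.0), with 122, 133, 111 and 124 in cluster 2 and 153, 154, 132 and 115 in cluster 3. The STAT2 start stood at -0.23 over these clusters (SE 0.07, edgeR unadjusted p = 0.00985, adjusted p = 1.00).

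Cluster 5, of 1065 mostly shallow barcodes (median 1191 counts, 135 of them deep), had few counts at several of these genes. IFIT3 had 0 counts of the cluster's 1125721, which allows a level of up to 2.66 CPM by counting error alone. IFIT2 had 1 count, OAS1 4 and MX1 6, while IFIT1 had 52 and ISG15 88. IRF1 stood at 209 and IRF9 at 139 CPM, above the 102 to 124 and 35.8 to 41.4 of clusters 2, 3, 4 and 6. Cluster 1, also of mostly shallow barcodes (median 250 counts), had IFIT3 at 9.7, IRF1 at 121 and IRF9 at 40.2 CPM. Cluster 7, a further shallow cluster (median 945 counts), had 0 counts at IFIT3, 2 at IFIT2, 3 at MX1 and 6 at OAS1 of 452143, where 0 allows up to 6.64 CPM. IRF1 stood at 157 and IRF9 at 70.8 CPM there, also above clusters 2, 3, 4 and 6. Cluster 5 held 10.3% of deep barcodes in Carrier 31 and at most 2.02% in the other libraries. Of all barcodes, mostly shallow, it held 5.55% and 9.47% in Carrier 12 and 31 and 9.81% and 5.65% in Inflachromene 11 and 35. Whether clusters 5 and 7 hold nuclei of Panc1 or of the mouse hosts was not tested.

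**Figure D4:**
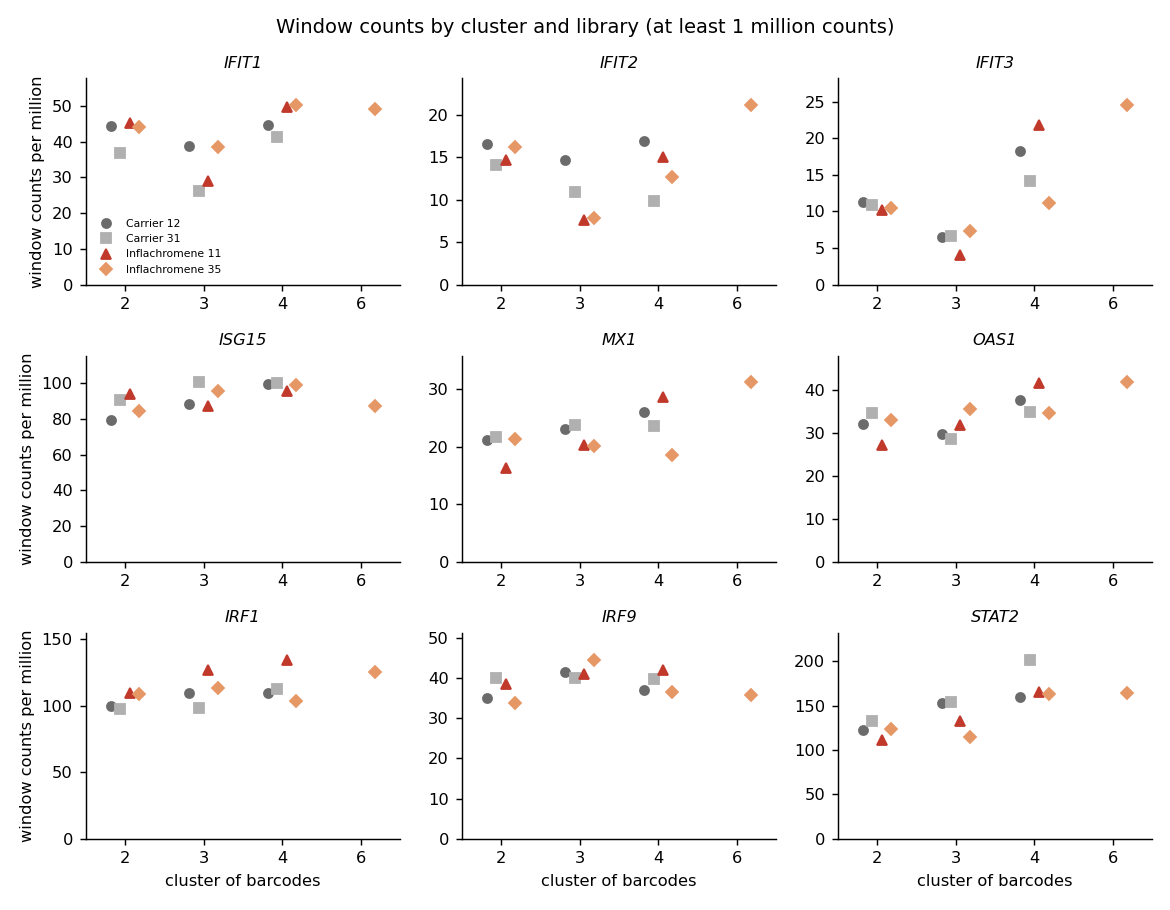
Window counts as CPM of the cluster's consensus counts for the 9 genes in clusters 2, 3, 4 and 6, for libraries with at least 1000000 counts in the cluster. Each point is 1 library, and the axis of each panel starts at 0. IFIT3 is lowest in cluster 3 in all 4 libraries and highest in cluster 6, and IRF9 varies little.

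The share of deep barcodes with a count in a gene's window was compared after each barcode was thinned to 2000 counts. It was largest at STAT2, at 19.3%, 20.3%, 19.1% and 21.5% in Carrier 12, Carrier 31, Inflachromene 11 and Inflachromene 35. IFIT3 had the smallest share in 3 of the 4 libraries, and in Inflachromene 35 IFIT2 was lower at 2.23%. The IFIT3 shares were 1.79% (95% exact Clopper-Pearson interval 1.26 to 2.46), 0.959% (0.439 to 1.81), 1.70% (1.11 to 2.48) and 2.28% (1.68 to 3.02). Without thinning these IFIT3 shares were 7.59%, 10.97%, 9.34% and 10.6%. At IRF1 the shares were 15.7% and 16.2% under Carrier and 17.0% and 16.6% under Inflachromene, and at ISG15 12.5% and 11.6% against 13.3% and 13.8%. These were the 2 of 9 members whose groups did not overlap, both higher under Inflachromene, against 27.3% of all windows, or 9.48% in that direction. With 2 libraries per group, the smallest p of a two-sided exact permutation test is 0.3333, which both genes had. A count in at least 1 of the 9 windows was found in 53.3% to 56.0% of thinned deep barcodes in each library.

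The rest of the interferon pathway was taken from a list of 74 genes (receptors, kinases, sensors and effectors) that holds no member. Of these, 64 had a measured window, 36 with a log2 fold change above 0 and 28 below, or 56.25% above against 52.2% of all windows, and the median was 0.01. By edgeR 0 passed at an adjusted p of 0.05, by DESeq2 0, and 6 had an edgeR unadjusted p under 0.05, all higher under Inflachromene. That is 6 of 64, against 4.75% of all windows, or 2.91% in that direction. Neighbouring genes were counted separately, and no offset for the surrounding 5 Mb was run for this list. The windows of 2 listed genes, IFIT5 and OAS3, share a consensus region with a member, so their values are not separate from the members'. Of the 64 pathway windows, 20, OAS3 among them, had groups without overlap and were higher under Inflachromene, against 17% of all windows. A further 12 were lower without overlap, and in either direction 33.1% of all windows had no overlap. Named are up to 4 genes per direction without overlap of the groups, by unadjusted p, and their adjusted p was 0.978 by edgeR. TRIM21, an antibody receptor and ubiquitin ligase, stood at 13.1 and 16.2 window CPM under Carrier and 19.6 and 23.8 under Inflachromene (log2 fold change 0.57, SE 0.17). SP100, a nuclear body protein, stood at 0.35 (0.10), PLSCR1, a phospholipid scramblase, at 0.30 (0.09) and IFITM1, which hinders virus entry, at 0.29 (0.09). In the other direction were OASL at -0.18 (0.08), SOCS1, an inhibitor of JAK kinases, at -0.17 (0.08), the receptor subunit IFNAR2 at -0.22 (0.10) and IL10RB, a receptor subunit for interferon lambda, at -0.30 (0.14). Of the effectors named here, OASL alone stood below 0, with a 95% interval of -0.37 to 0.0018.

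The mean profile of the 9 members over the 4 libraries (log2 window CPM, centred on each gene's mean) was -0.02 and -0.12 for Carrier 12 and 31 and 0.01 and 0.13 for Inflachromene 11 and 35. The 3 windows most like it by root mean square difference were ANKEF1 (0.0063), UCN (0.0064) and RTTN (0.0067). They were the closest of the 16431 windows compared, of which 4655 differed from the members' mean by less than 0.1.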

How the data were processed

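Per the labels' protocols, nuclei were isolated and libraries made with 10x single-cell ATAC reagents. Cell Ranger ATAC (2.1.0) and Cell Ranger ARC, with the build GRCh38, are listed in the submitters' processing notes, without their settings. The authors deposited, per library, a peak list and a matrix of raw counts for every peak and barcode, without normalization.

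Peaks of chromosomes 1 to 22 and X were kept and merged where they shared 1 bp, and a region with a peak in all 4 libraries was a consensus region. Counts were summed over all barcodes of a library, so fewer open nuclei and less signal per nucleus cannot be told apart. Windows, starts and regions were each fitted over all features with edgeR 4.0.16 (R 4.3.3): TMM, filterByExpr, which removed none, the quasi-likelihood F test and Benjamini-Hochberg adjustment at 0.05. Standard errors come from its statistic. DESeq2 1.42.0 was the other tool. Where several starts of a gene had regions, the highest was used. On simulated counts for the 16451 windows, 76% of 1.5-fold and 98% of 2-fold changes were recovered. For the 50771 regions these shares were 4% and 42%. In each of these simulations 7 unchanged features were called too. The simulated counts were independent and had the same spread at every feature, unlike the data. The shares therefore do not say how large a change at a member would have been found.

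Barcodes were clustered by latent semantic indexing (30 components, the first left out, correlation with log10 counts 0.976) and Leiden (leidenalg 0.10.2, 15 neighbours, resolution 0.5). No doublet caller was run. Named are all 9 members, the start regions, regions with an unadjusted p under 0.05, and pathway genes as stated. A few further regions of the windows were named after their values were seen. Members and lists were chosen with earlier results of these data known. The labels do not say more of the mice than their numbers, so p-values measure the spread between these libraries.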

Additional observations from a re-analysis of the deposited data

How the results depend on the processing

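No member window, start or region was called under any of the settings tried. Of 282 single values of members under alternatives, 249 kept their sign and 33 turned. The setting without the filter on low counts repeats the main values, because the filter removed none, so its signs could not turn. Over barcodes of the 2 main Carrier clusters the windows gave -0.32 for IFIT2, -0.27 for IFIT3, -0.0061 for ISG15, -0.17 for MX1 and -0.17 for STAT2, and the starts -0.30 for IFIT3, -0.029 for ISG15, -0.20 for MX1, -0.030 for IRF9 and -0.23 for STAT2. With barcodes counted in place of counts the windows of IFIT2 and MX1 gave -0.056 and -0.023, and with the 5 Mb offset -0.10 and -0.0033. The IFIT2 window gave -0.0026 with peaks of at least 100 counts and -0.0089 over the gene alone, and ISG15 gave -0.076 with every peak of each library. In this last setting a region without a called peak adds nothing. Leaving out 1 library turned the windows of IFIT2 (lowest -0.21, highest 0.21), ISG15 (-0.028 to 0.094), MX1 (-0.020 to 0.11) and IRF9 (-0.015 to 0.14), and the starts of IFIT1 (-0.19 to 0.57), IFIT2 (-0.27 to 0.22), ISG15 (-0.15 to 0.21), MX1 (-0.0019 to 0.21), IRF9 (-0.0074 to 0.078) and STAT2 (-0.048 to 0.11). The windows of IFIT1 (0.017 to 0.42), OAS1 (0.062 to 0.23) and STAT2 (0.00064 to 0.13) kept their sign but moved. Without barcodes found in more than 1 library, a setting chosen after seeing the data, the starts of IFIT2 and MX1 gave 0.22 and -0.029, and the IFIT3 and IRF1 windows 0.62 and 0.17. Without the shallower copies alone, the last 2 gave 0.45 and 0.26. The causes were not tested.

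Of all features, DESeq2 called 28 regions, 9 windows and 24 starts, barcodes counted in place of counts gave 5 windows and 21 starts, and the 5 Mb offset gave 2 starts. Leaving out a library gave 0 to 3180 called regions, 0 to 261 windows and 0 to 100 starts. With 1 library left in an arm, that library is assumed to vary like the other group's pair. The highest of each came without Inflachromene 11, and without Inflachromene 35 there were 299, 55 and 48. The pathway list's median was 0.068 without Carrier 12, -0.0020 without Carrier 31 and between 0.0079 and 0.039 under its other settings. No paired analysis was possible because the groups share no mouse number. The median 95% interval of a start extended 0.21 to either side on the log2 scale and that of a region 0.50 with 2 libraries per group.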

Other observations

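Gene starts across the genome were also grouped by promoter letters. Of 658 protein-coding genes with a match to the response element core, 382 (58.1%) had a consensus region at a start, against 63.4% of the 15154 genes without a match, and their median level was 68.3 against 79.6 start CPM per kb. Of the 382, 192 (50.3%) had a log2 fold change above 0, with a median of 0.00, against 50.4% of those without a match. None was called by edgeR, and 21 (5.50%) had an unadjusted p under 0.05, against 6.05%. Of the 850 starts with TTCNNNGAA, 421 (49.5%) were above 0.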
